A study of Mus musculus with 10 samples.

Results

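Enterocytes are the absorptive cells of the intestinal lining. The cells described here carry the label EC in the study's deposited annotation and come from 8 single-cell RNA libraries of cultured mouse intestinal organoids. They number 1325 of the 22139 organoid cells kept after filtering, and 25204 cells are kept in the whole series. Crypts of the proximal small intestine were grown in Matrigel in 1 basal medium (Advanced DMEM/F12, N2, B27, N-acetylcysteine), shared by every group. The ENR-organoids (3 libraries, 846 enterocytes) received EGF, Noggin and R-Spondin 1. The Hyper-organoids (3 libraries, 86 enterocytes) received EGF, FGF2 and R-Spondin 1 conditioned medium with the BMP receptor inhibitor LDN193189, the GSK-3 Inhibitor XV, the p38 inhibitor Pexmetinib, the histone deacetylase inhibitor VPA (valproic acid) and the EZH2 inhibitor EPZ6438. For -VE-organoids (2 libraries, 393 enterocytes) the cultures received the Hyper medium without VPA and EPZ6438.

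Replicates 1, 2 and 3 stand here for the libraries whose names carry 2, 6 and C. The ENR-organoids were at passage 2, 7 and 3, the -VE-organoids at passage 1 and 6, and the Hyper-organoids at passage 1, 6 and 3. Replicates 1 and 2 of the Hyper-organoids and both -VE libraries were derived from ENR-organoids, whereas ENR replicate 3 and Hyper replicate 3 came from primary crypts. The cultures hold epithelium only, the methods name Lgr5-EGFP-IRES-creERT2 mice as a source of crypts, and the labels do not say whether libraries came from separate animals, so p-values measure the spread between these libraries. Replicates 1 and 2 of Hyper and -VE match in origin and passage, and Hyper replicate 3, from primary crypts, has no -VE counterpart.

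Enterocytes arise from crypt progenitors that stop dividing, move onto the villus and build a brush border of microvilli. The brush border carries the enzymes that finish the digestion of sugars and peptides and the transporters that take up the products. Inside the cell, fatty acids are bound by small carrier proteins and packed with apolipoproteins into lipoproteins, while vitamin A, bile acids, iron and foreign chemicals are handled by sets of enzymes and carriers of their own. Enterocytes also secrete antimicrobial lectins of the Reg family, and their gene programme shifts as they climb the villus.

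Enterocytes were scarcest in the Hyper-organoids. They made up 9.78, 13.1 and 12.4% of kept cells in ENR replicates 1 to 3, 6.23 and 5.68% in the -VE replicates, and 0.249, 1.65 and 1.06% in the Hyper replicates. The 3 media did not overlap, with means of 11.8 ± 1.75% (SD, n = 3), 5.96 ± 0.389% (SD, n = 2) and 0.985 ± 0.702% (SD, n = 3). Hyper lay 10.8 percentage points below ENR (exact two-sided permutation test, p = 0.1, the smallest p that 3 against 3 libraries allow). Among the cells outside the stem and transit amplifying classes, enterocytes held 24.1 ± 2.83% in ENR (SD, n = 3), 26.3 ± 1.69% in -VE (SD, n = 2) and 8.42 ± 6.23% in Hyper (SD, n = 3). Their nearest class, the enterocyte progenitors, counted 486, 635 and 809 cells in ENR, 105 and 184 in -VE, and 3, 3 and 2 in Hyper.

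**Figure D1:**
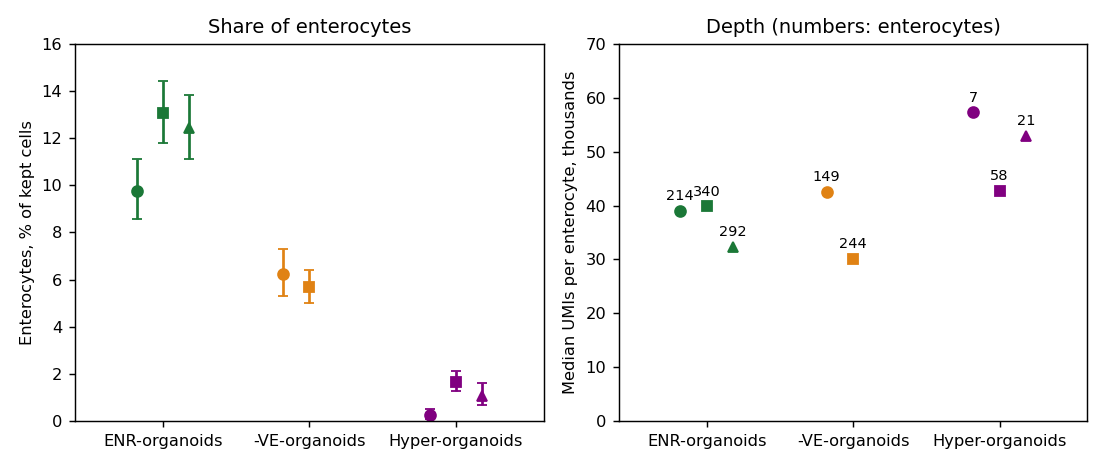
Share of enterocytes among kept cells (left, percent, with 95% Clopper-Pearson intervals as bars, counting error only) and median UMIs per enterocyte (right) in each of the 8 libraries, colored by medium. Shares of the 3 media do not overlap, from 9.78 to 13.1% in ENR down to 0.249 to 1.65% in Hyper, and the 3 Hyper medians are above every other library.

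The number of cells and the depth behind each library differed with the medium. ENR replicates held 214, 340 and 292 enterocytes, -VE replicates 149 and 244, and Hyper replicates 7, 58 and 21. Summed over these cells, the counts of unique molecular identifiers (UMIs, which mark single captured RNA molecules) came to 7584840, 13340614 and 9142170 in ENR, 6357015 and 7920286 in -VE, and 425421, 2439347 and 973780 in Hyper. The median enterocyte held 32331 to 39847 UMIs in ENR, 30104 to 42494 in -VE and 42736 to 57295 in Hyper. Hyper replicate 1 thus rests on 7 cells, and its counting error is the largest of the 8. Over the 28 pairs of libraries, 0 to 5 kept barcodes were shared, and 0 were shared by 2 enterocytes.

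All 7 fixed enterocyte markers (Alpi, Sis, Apoa1, Apoa4, Fabp1, Reg1 and Rbp2) were detected in each of the 8 libraries. The annotation was made from the same counts with some of these markers, so their presence is a description and no check of the label. Immune markers (0 of 4 detected in any library) were absent, the 4 stromal markers summed to at most 4.7 CPM (UMI counts scaled to a common library total), and the 5 tuft markers to at most 0.41 CPM. The 7 goblet markers summed to 351, 262 and 559 CPM in ENR, 237 and 884 in -VE, and 132, 93.9 and 113 in Hyper, where Zg16 and Clca1 were at 0 in all 3 libraries. The 6 Paneth markers summed to 124, 116 and 869 CPM in ENR, 167 and 192 in -VE, and 155, 25.8 and 21.6 in Hyper. Goblet sums were thus lower in every Hyper library than in any other, and the part of these transcripts in the differences between media was not tested beyond 1 refit without the enterocytes that carry secretory markers, whose counts are given with each comparison.

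Fabp1, Alpi and Apoa4 were highest in enterocytes among the 7 classes compared, with enterocyte progenitors next (revival stem and tuft cells aside). Liver-type fatty acid binding protein Fabp1 (ENSMUSG00000054422, chr6:71199800-71205000, plus strand on mm10) had a mean of 13043 CPM in enterocytes, 397 to 978 CPM in the enterocyte progenitors of the ENR and -VE libraries and 75.0 CPM in stem cells. Intestinal alkaline phosphatase Alpi (ENSMUSG00000079440, chr1:87098000-87101600, minus strand), a brush border enzyme, had a mean of 415 CPM in enterocytes, 27.9 to 122 CPM in those progenitors and 8.48 CPM in stem cells. Apoa4 (ENSMUSG00000032080, chr9:46240700-46243500, plus strand), an apolipoprotein of chylomicrons, had a mean of 1297 CPM in enterocytes, 16.7 to 44.5 CPM in those progenitors and 10.7 CPM in goblet cells. Sucrase-isomaltase Sis (ENSMUSG00000027790, chr3:72888600-72967900, minus strand), which splits sucrose and starch fragments, was shared with enteroendocrine cells, where it stood at 364, 346 and 287 CPM in ENR, 204 and 134 in -VE, and 60.2, 107 and 122 in Hyper. These class differences carry no test, since the classes were made from the same counts.

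The stretches just upstream of the start of Alpi, Sis and Fabp1 are shown because these genes mark the class. They are the 250 bases before the start site in the RefSeq annotation of GRCm38.p6 (the mm10 assembly), 5′ to 3′ on the gene's own strand, at chr1:87101607-87101856 on the minus strand for Alpi, chr3:72967864-72968113 on the minus strand for Sis and chr6:71199629-71199878 on the plus strand for Fabp1. The capitals mark 3 motifs searched on both strands, CAAAGTCCA (a HNF4-type element), CAATAAA (a CDX-type element) and TATAAA (the core promoter box).
Alpi: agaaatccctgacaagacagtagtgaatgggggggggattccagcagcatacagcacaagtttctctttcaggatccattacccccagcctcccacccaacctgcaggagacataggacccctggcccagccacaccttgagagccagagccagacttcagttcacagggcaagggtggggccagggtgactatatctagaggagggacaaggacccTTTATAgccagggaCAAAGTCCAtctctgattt
Sis: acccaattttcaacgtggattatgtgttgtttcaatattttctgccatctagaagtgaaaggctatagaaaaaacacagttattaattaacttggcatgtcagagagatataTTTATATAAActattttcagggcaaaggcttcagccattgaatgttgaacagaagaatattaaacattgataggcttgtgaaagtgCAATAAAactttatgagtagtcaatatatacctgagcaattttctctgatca
Fabp1: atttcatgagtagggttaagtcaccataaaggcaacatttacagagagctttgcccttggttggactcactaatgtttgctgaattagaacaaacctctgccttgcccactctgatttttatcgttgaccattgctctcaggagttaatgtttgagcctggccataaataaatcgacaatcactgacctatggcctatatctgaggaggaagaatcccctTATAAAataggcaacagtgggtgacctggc
In Alpi the HNF4-type letters lie 19 to 11 bases before the start, and the TATA letters 33 to 28 bases before it on the opposite strand. In Sis the CDX-type letters lie 52 to 46 bases before the start, and 2 overlapping TATA matches, on opposite strands, reach from 138 to 129 bases before it. In Fabp1 the TATA letters lie 30 to 25 bases before the start. Of 32851 such windows over all genes, 0.384% hold the HNF4-type letters, 4.2% the CDX-type letters and 12.4% the TATA letters. The matches describe the letters only.

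The 4 defining markers did not move together between media. Sis fell with both Hyper and -VE, Alpi varied as much within a medium as between media, and the differences of Apoa4 and Apoa1 turned on single libraries. Levels here are CPM of the summed enterocytes of a library, scaled by TMM factors. Each difference is a log2 fold change, and its adjusted p comes from edgeR's quasi-likelihood test. The standard error (SE) beside it is the size of the change divided by the square root of that test's F statistic. A gene is called at an adjusted p under 0.05 and a change of at least 2-fold, and a call is lost when either fails.

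Sis stood at 1545, 1584 and 1104 CPM in ENR, 379 and 166 in -VE and 314, 272 and 44.1 in Hyper. No Hyper or -VE library reached the lowest ENR library. The fall from ENR to Hyper was called (log2 -2.77, SE 0.54, adjusted p = 0.00514) and stayed called when any library was left out. The fall from ENR to -VE was called narrowly (log2 -2.37, SE 0.60, adjusted p = 0.0478), and was lost without ENR replicate 1 (log2 -2.28, adjusted p = 0.147), without ENR replicate 2 (log2 -2.26, adjusted p = 0.153), without ENR replicate 3 (log2 -2.49, adjusted p = 0.0809), without -VE replicate 1 (log2 -3.09, adjusted p = 0.0616), without -VE replicate 2 (log2 -1.90, adjusted p = 0.356) and without Hyper replicate 2 (log2 -2.37, adjusted p = 0.0559). The difference between Hyper and -VE failed the test (log2 -0.40, SE 0.57, adjusted p = 0.7).

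Alpi stood at 239.6, 247 and 325 CPM in ENR, 234 and 889.6 in -VE and 207, 805 and 368 in Hyper, where the replicate 2 libraries of -VE and Hyper are the highest and the groups overlap. None of its 3 differences passed the test, the largest being log2 1.05, SE 0.53, adjusted p = 0.317 for -VE over ENR, which changes sign without -VE replicate 2 (log2 -0.21, adjusted p = 0.943). Apoa4 reached 3240.5, 2680.1 and 16.4 CPM in Hyper against 1219, 1345 and 663 in ENR and 884 and 327 in -VE. Hyper replicate 3 was the lowest and Hyper replicates 1 and 2 the highest of all 8. The level in Hyper replicate 1 came mostly from the highest of its 7 cells, as given below. Its difference between Hyper and ENR failed the test (log2 0.88, SE 0.99, adjusted p = 0.579) and passed it without Hyper replicate 3 (log2 1.46, adjusted p = 0.028), and that between Hyper and -VE went from log2 1.71, SE 1.17, adjusted p = 0.382 to a call without Hyper replicate 3 (log2 2.29, adjusted p = 0.0144). Apoa1, the main protein of high-density lipoprotein, stood at 2051, 2000.3 and 1146 CPM in ENR, 1145 and 632 in -VE and 475, 1573 and 114 in Hyper, with no call. Its fall from ENR to Hyper (log2 -1.24, SE 0.65, adjusted p = 0.207) passed without Hyper replicate 2 (log2 -2.61, adjusted p = 0.0181).

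**Figure D2:**
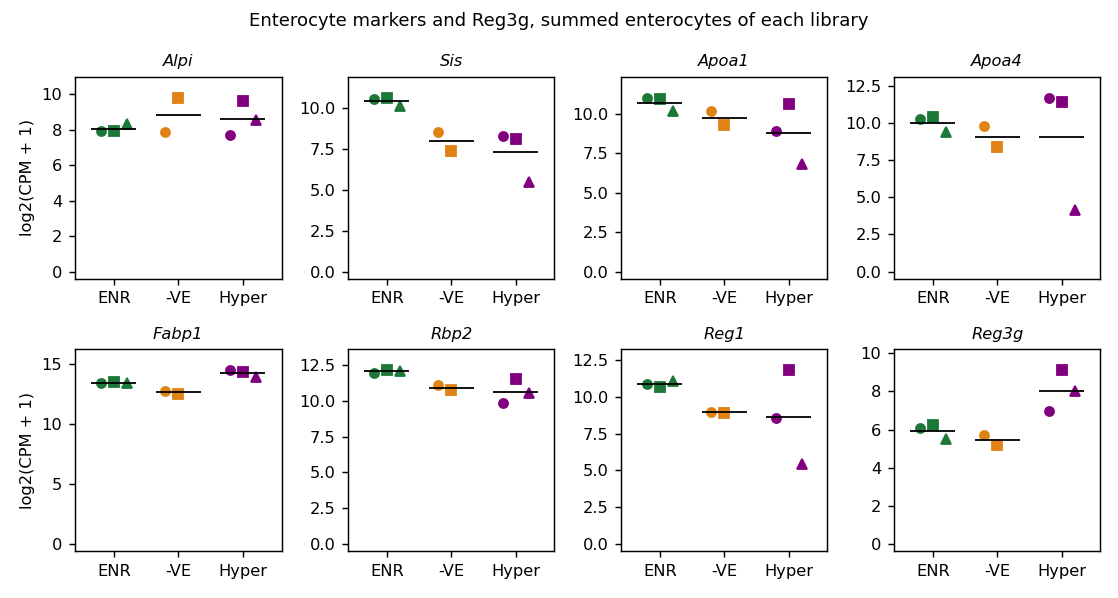
Level of the 7 enterocyte markers and Reg3g in the summed enterocytes of each library, as log2(CPM + 1). Circle, square and triangle are replicates 1, 2 and 3 and the black line is the mean of the medium. Sis is lower in every Hyper and -VE library than in ENR, Fabp1 is highest in Hyper, and Apoa4, Apoa1 and Reg1 spread widely within Hyper.

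These markers also varied over the single cells of a library. Cells were thinned to 10000 UMIs, which left 186, 327 and 269 enterocytes in ENR, 145 and 224 in -VE, and 7, 57 and 18 in Hyper. The median enterocyte held 88, 73 and 51 Fabp1 UMIs in ENR, 35 and 38.5 in -VE, and 253, 183 and 112 in Hyper. Apoa4 was carried by few cells, with a median of 0 to 2 UMIs in each of the 8 libraries and 215, 796, 126, 269, 200, 217, 273 and 1 UMIs in the highest cell of ENR replicates 1 to 3, -VE replicates 1 and 2 and Hyper replicates 1 to 3. The 18 thinned cells of Hyper replicate 3 thus held no cell rich in Apoa4. In Hyper replicate 1, the highest of the 7 cells held most of the Apoa4 UMIs, 217 against a mean of 31.6 and a median of 0. Apoa1 (highest cell 37, mean 5.43) and Reg1 (highest cell 25, mean 3.57) were as uneven there. Within a library, cells rich in Apoa4 tended to be rich in Apoa1, with Spearman's rho over cells from 0.60 to 0.88 in the 7 other libraries (7 to 327 cells each, all of 1 library sharing its free RNA) and -0.06 in Hyper replicate 3.

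Sis was detected in 89.8, 94.2 and 87.7% of thinned enterocytes of ENR, 62.8 and 38.8% of -VE, and 71.4, 45.6 and 16.7% of Hyper. In stem cells of the same libraries, which should lack it, the share was 7.6, 7.0 and 3.5% in ENR, 1.7 and 2.0% in -VE, and at most 0.5% in Hyper. Every enterocyte share lay above that of the stem cells beside it. Before thinning, Apoa4 was seen in 77.6, 84.1 and 69.9% of enterocytes of ENR, 51.7 and 48.0% of -VE, and 57.1, 63.8 and 28.6% of Hyper, and in 3.09 to 35.3% of stem cells, so for Apoa4 in Hyper replicate 3 the thinned share of 5.6% stands beside 0.6% in stem cells.

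Enterocytes and their progenitors could be set side by side only in ENR and -VE, since the Hyper libraries hold 2 or 3 progenitors each. Over those 5 libraries, enterocytes were higher by a log2 difference of 6.18 to 8.29 in Reg1, 4.36 to 6.71 in Apoa1, 3.69 to 4.59 in Sis, 2.59 to 4.78 in Fabp1 and 2.77 to 3.39 in Alpi. The cell-cycle gene Top2a (-4.28 to -3.11) and the stem cell gene Olfm4 (-3.66 to -2.13) were lower. The step was shorter in both -VE libraries than in all 3 ENR libraries for Fabp1, Sis, Apoa1, Apoa4, Reg1 and Rbp2. For Lgr5, the R-spondin receptor of crypt stem cells, the difference was -1.96 to -1.67 in ENR and -0.11 and -0.41 in -VE. These are descriptions with no test.

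Between Hyper and ENR, called genes of fatty acid oxidation were higher in Hyper, and called digestive enzymes and most called retinoid and cell-cycle genes were lower. Of 11250 genes tested, 1185 were called (10.5%), 875 higher in Hyper (7.78%) and 310 lower (2.76%), and the libraries of the 2 media did not overlap in 4057 genes (36.1%). The median change over all genes was -0.02. Thinned to 10000 UMIs per cell, 537 genes were called, 350 higher and 187 lower in Hyper. Without enterocytes that carry secretory markers 1223 were called, and without Hyper replicate 2 742. Between same-numbered libraries, 721 of the 875 (82.4%) were higher in Hyper in every pair, and 303 of the 310 (97.7%) lower in every pair.

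Large rises were seen in genes that ENR-enterocytes hardly use. The RNA-binding protein gene Rbpms rose from 0.399, 0.228 and 0.701 to 41.9, 52.2 and 54.4 CPM (log2 6.87, SE 0.28, adjusted p = 7.20e-07). The monoglyceride lipase Mgll rose from 0.133, 0.304 and 0.234 to 55.9, 24.5 and 16.4 CPM (log2 6.76, SE 0.56, adjusted p = 5.36e-05). Both were high in each Hyper library and near the detection limit in each ENR library. Of genes with 0 UMIs in all ENR-enterocytes, Arxes2 was at least 141-fold and Zfhx4 at least 131-fold higher in Hyper, counted against a floor of 3 UMIs over the group. These bounds rest on 56 and 52 UMIs in the Hyper-enterocytes, and the part of free RNA from other cells in them was not tested. Bex4 (0 UMIs in ENR and -VE) stood at 0, 24.9 and 35.9 CPM in Hyper with no UMI in replicate 1.

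Among the genes that fell was Cyp2c38, a cytochrome P450 with 367 UMIs in ENR and 0 in Hyper, at least 16.1-fold lower. Cfhr2, a complement factor H related gene that also marks enterocyte progenitors, went from 114, 162 and 150.2 to 4.66, 3.67 and 1.03 CPM (log2 -5.52, SE 0.42, adjusted p = 2.88e-05). The mitochondrial arginase Arg2 went from 459, 488 and 532 to 74.5, 117 and 46.2 CPM (log2 -2.57, SE 0.26, adjusted p = 0.000166). Neither of the last 2 overlapped between the media.

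Between Hyper and -VE, whose media differ by VPA and EPZ6438 alone, called genes of lipid handling and fatty acid oxidation were higher in Hyper and most called cell-cycle genes lower. Of the 11250 genes, 715 were called (6.36%), 560 higher in Hyper (4.98%) and 155 lower (1.38%), and 36.5% of genes did not overlap. After thinning 268 genes were called, 206 higher and 62 lower in Hyper, and without cells with secretory markers 679. In both same-numbered pairs, 475 of the 560 (84.8%) were higher in Hyper and 154 of the 155 (99.4%) lower. Leaving out -VE replicate 1, -VE replicate 2 or Hyper replicate 2 left 450, 325 and 343 calls. Fabp1 rose from 6980.1 and 5871 CPM in -VE to 22725, 20194 and 15191 in Hyper (log2 1.59, SE 0.16, adjusted p = 0.000506) and stayed called when any library was left out. The comparison shares the Hyper libraries with the one above.

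Between -VE and ENR, called digestive enzymes, transporters and bile acid genes were lower in -VE. Here 310 genes were called (2.76%), 120 higher in -VE (1.07%) and 190 lower (1.69%), and 44.1% of genes did not overlap between 2 and 3 libraries. This comparison leans on few libraries, for 51 genes were called without -VE replicate 2, 80 without ENR replicate 2 and 134 without ENR replicate 1. After thinning 284 genes were called, and without cells with secretory markers 311.

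**Figure D3:**
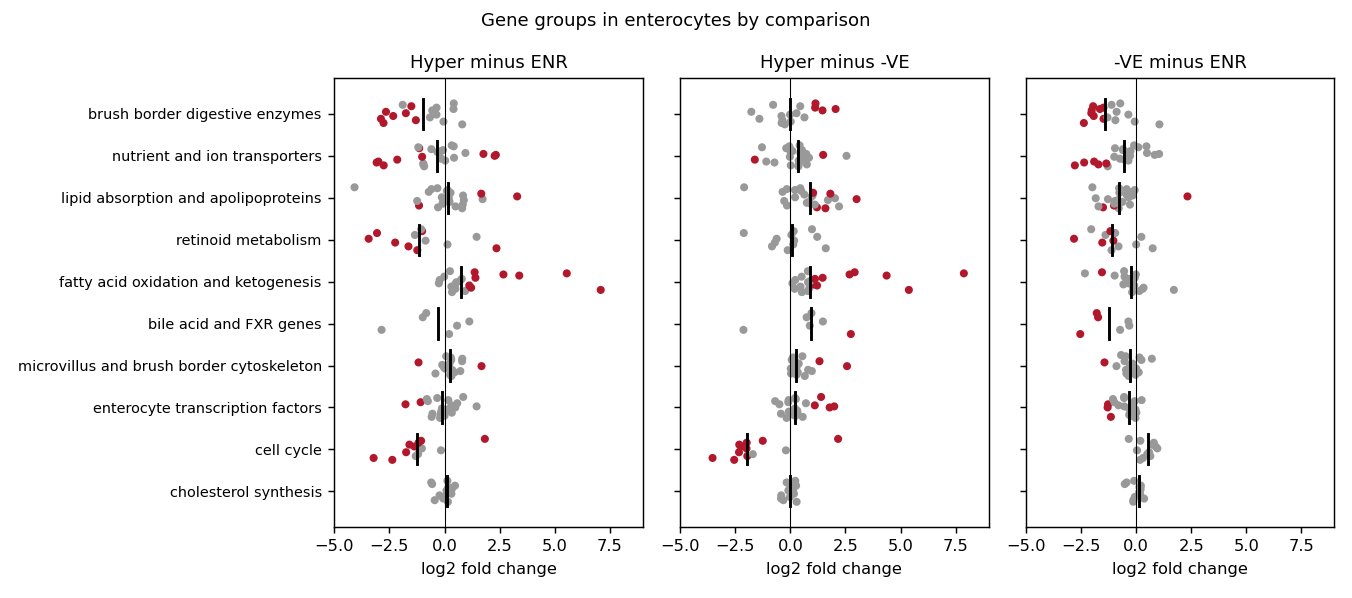
Log2 fold change of every tested member of the gene lists in enterocytes, for the 3 comparisons of media. Red points are called genes, grey points are not called, and the black bar is the median of the list. The medians of digestive enzymes and retinoid genes sit left of 0 in Hyper over ENR and in -VE over ENR, and the median of oxidation genes sits right of 0 in both comparisons with Hyper.

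Brush border enzymes called against ENR were all lower, in Hyper and in -VE. Of 16 tested, 0 were called higher and 7 lower in Hyper than in ENR (median log2 -0.98, against -0.02 over all genes), and 0 higher and 8 lower in -VE than in ENR (median -1.39, against 0), the latter 4 by DESeq2. Over all genes, 2.76% were called lower in Hyper over ENR, 1.69% lower in -VE over ENR and 4.98% higher in Hyper over -VE. Trehalase, Treh, which splits trehalose, stood at 73.1, 67.9 and 49.9 CPM in ENR, 24.7 and 21 in -VE and 32.6, 6.93 and 1.03 in Hyper (log2 -2.89, SE 0.46, adjusted p = 0.00167 for Hyper over ENR). The maltase Mgam stood at 248, 237 and 196 CPM in ENR, 126 and 110.0 in -VE and 88.5, 113 and 67.7 in Hyper (log2 -1.30, SE 0.18, adjusted p = 0.000858). Neither overlapped between ENR and the other media. Hyper over -VE went the other way for 4 genes called higher and 0 lower (median 0.00), all of them peptidases. The metalloprotease Mep1a, at 12.3 and 6.6 CPM in -VE and 18.6, 48.9 and 31.8 in Hyper, was among them (log2 2.05, SE 0.36, adjusted p = 0.00671), a call lost without Hyper replicate 2 (log2 1.57, adjusted p = 0.0964).

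Transporters were called in both directions between Hyper and ENR. Of 23 tested, 3 were called higher and 6 lower in Hyper than in ENR, where 10.5% of all genes were called. Hyper over -VE gave 1 higher and 1 lower, a share near the 6.36% of all genes. In -VE over ENR, 0 were called higher and 5 lower, where 2.76% of all genes were called. The fructose transporter Slc2a5 fell from 97.6, 94.9 and 83 CPM in ENR to 17.2 and 9.84 in -VE (log2 -2.78, SE 0.22, adjusted p = 0.000752) and 23.3, 11.8 and 12.3 in Hyper (log2 -2.76, SE 0.26, adjusted p = 0.000113). The neutral amino acid transporter Slc6a19 fell from 102, 112 and 87.9 to 21, 15.5 and 0 CPM in Hyper (log2 -3.08, SE 0.46, adjusted p = 0.00121). Its 26.9 and 13 CPM in -VE gave a call (log2 -2.36, SE 0.37, adjusted p = 0.00709) that was lost without -VE replicate 2 (log2 -1.91, adjusted p = 0.0894). The proton-coupled folate transporter Slc46a1 went up, from 7.7, 6.47 and 5.84 CPM in ENR and 9.78 and 13.8 in -VE to 48.9, 35.5 and 21.5 in Hyper (log2 2.33, SE 0.26, adjusted p = 0.000277 over ENR). The 2 others called higher in Hyper over ENR were Slc34a2, a phosphate carrier, and Slc40a1, the iron exporter. S100g, a vitamin D dependent calcium carrier, stood at 313, 321 and 376 CPM in ENR, 391 and 539 in -VE and 515, 706 and 121 in Hyper with overlapping groups and no call.

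Of 24 lipid handling genes tested, 2 were called higher and 1 lower in Hyper than in ENR, a share near the 10.5% of all genes, 5 higher and 0 lower in Hyper than in -VE (median 0.88, against 0.02 over all genes), and 1 higher and 2 lower in -VE than in ENR, where 23 of 24 had a negative sign. Over all genes, 6.36% were called in Hyper over -VE and 2.76% in -VE over ENR. Fabp1 stood at 10920.4, 11384 and 11082 CPM in ENR, between the -VE and Hyper libraries. Its rise from ENR to Hyper passed the test below the 2-fold limit (log2 0.80, SE 0.13, adjusted p = 0.00227), as did its fall from ENR to -VE (log2 -0.79, SE 0.15, adjusted p = 0.0143). Intestinal Fabp2 stood at 2789, 2879 and 2594 CPM in ENR, 1044 and 899 in -VE and 2525, 2954 and 1245 in Hyper, with a call for Hyper over -VE (log2 1.21, SE 0.28, adjusted p = 0.0217) that was lost without -VE replicate 1 (log2 1.31, adjusted p = 0.0801), without -VE replicate 2 (log2 1.09, adjusted p = 0.134) and without Hyper replicate 2 (log2 0.96, adjusted p = 0.0776). Dgat1, which makes the last bond of a triglyceride, fell from 417, 449 and 420.5 CPM in ENR to 193, 212 and 169 in Hyper (log2 -1.16, SE 0.13, adjusted p = 0.000266), while the lipoprotein receptor Scarb1 rose from 6.51, 5.33 and 3.04 to 32.6, 50.6 and 55.4 (log2 3.30, SE 0.44, adjusted p = 0.000635). Apoc3, an apolipoprotein of the same gene cluster as Apoa4, stood at 362, 419.9 and 313 CPM in ENR, 132 and 72.4 in -VE and 953, 346 and 4.1 in Hyper with no call in any comparison.

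Called genes of fatty acid oxidation and ketogenesis were higher in Hyper than in both other media. Of 20 tested genes, 8 were called higher and 0 lower than in ENR (median 0.74, against -0.02 over all genes). Against -VE, 9 were called higher and 0 lower (median 0.88, against 0.02 over all genes). In -VE over ENR, 0 were called higher and 1 lower. Over all genes, 7.78% were called higher in Hyper over ENR, 4.98% higher in Hyper over -VE and 1.69% lower in -VE over ENR. The trifunctional protein subunit Hadhb rose from 147, 145 and 139 CPM in ENR and 126 and 149 in -VE to 387, 438 and 309.7 in Hyper (log2 1.40, SE 0.14, adjusted p = 0.000184 over ENR). The fatty acid hydroxylase Cyp4a10 stood at 1.46, 1.29 and 1.64 CPM in ENR, 0.311 and 0.24 in -VE and 219, 44 and 6.15 in Hyper (log2 5.55, SE 0.88, adjusted p = 0.00163 over ENR). Peroxisomal thiolase Acaa1b, at 44.6, 58.2 and 53 CPM in ENR, 20.5 and 15.2 in -VE and 228, 120.3 and 87.2 in Hyper, rose over ENR (log2 1.37, SE 0.26, adjusted p = 0.00481) and over -VE (log2 2.92, SE 0.33, adjusted p = 0.000765). Each of these Hyper libraries lay above every library of the other 2 media. Other members called in both comparisons with Hyper were Slc25a20, Pdk4 and Angptl4, and Cpt1a was called over ENR. Hadh and Acaa2, the members with the highest levels, were not called in any comparison.

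**Figure D4:**
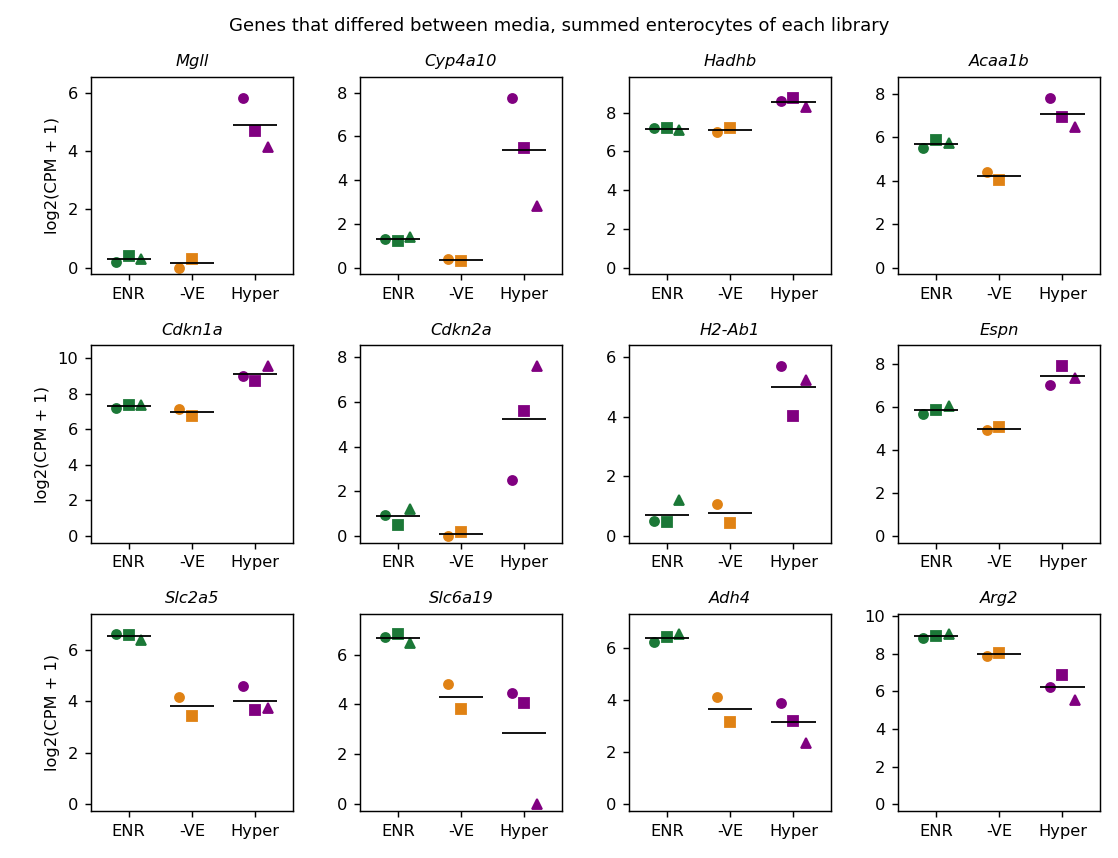
Level of 12 named genes in the summed enterocytes of each library, as log2(CPM + 1), with circle, square and triangle for replicates 1, 2 and 3 and a black line at the mean. Mgll, Cyp4a10, Hadhb, Acaa1b and Espn are higher in every Hyper library than in any ENR or -VE library, and Slc2a5, Slc6a19, Adh4 and Arg2 are highest in ENR.

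Retinoid genes called against ENR were lower in Hyper and -VE, with 1 exception. Of 12 tested genes, 1 was called higher and 6 lower in Hyper than in ENR (median -1.15, against -0.02 over all genes). Between Hyper and -VE, 0 were called in either direction by edgeR or DESeq2 (3 at an unadjusted p under 0.05, 1 called by voom). In -VE over ENR, 0 were called higher and 4 lower. Over all genes, 2.76% were called lower in Hyper over ENR, 6.36% either way in Hyper over -VE and 1.69% lower in -VE over ENR. The alcohol dehydrogenase Adh4, which oxidises retinol, fell from 74.7, 86.8 and 93.2 CPM in ENR to 16.6 and 7.92 in -VE (log2 -2.82, SE 0.26, adjusted p = 0.000925) and 14, 8.16 and 4.1 in Hyper (log2 -3.44, SE 0.34, adjusted p = 0.000157). The retinol carrier Rbp2 stood at 3981, 4447 and 4216 CPM in ENR, 2201 and 1686 in -VE and 927, 2932 and 1475 in Hyper, lower in every Hyper library than in ENR (log2 -1.24, SE 0.32, adjusted p = 0.0191), a call lost without ENR replicate 2 (log2 -1.20, adjusted p = 0.0552), without Hyper replicate 1 (log2 -0.93, adjusted p = 0.0212) and without Hyper replicate 3 (log2 -1.10, adjusted p = 0.0692). Bco1, the beta-carotene oxygenase, was the gene called higher, at 0.93, 1.45 and 2.57 CPM in ENR and 4.66, 9.79 and 8.2 in Hyper (log2 2.36, SE 0.48, adjusted p = 0.00654), a call lost without Hyper replicate 2 (log2 2.08, adjusted p = 0.109).

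Xenobiotic enzymes called against ENR were mostly lower, and the bile acid genes called between -VE and ENR were lower in -VE. Of 27 xenobiotic enzymes, 1 was called higher and 6 lower in Hyper than in ENR, where 10.5% of all genes were called. Hyper over -VE gave 1 higher and 1 lower, a share near the 6.36% of all genes. In -VE over ENR, 0 were called higher and 4 lower, where 2.76% of all genes were called. The summed level of the list was 13447, 13868 and 12718 CPM in ENR, 14065.5 and 12178 in -VE, and 10493, 17563 and 17406.5 in Hyper. Fmo5, a flavin monooxygenase, fell from 272, 307 and 321 CPM in ENR to 105 and 52.5 in -VE (log2 -1.94, SE 0.26, adjusted p = 0.00317), and stood at 156, 138 and 189.7 in Hyper. Of 6 tested bile acid genes, 0 were called between Hyper and ENR (4 at an unadjusted p under 0.05 in edgeR, 1 called by DESeq2, 0 by voom), 1 higher in Hyper than in -VE, and 3 lower in -VE than in ENR. The 3 were Slc10a2, the apical bile acid importer, and Slc51a and Slc51b, which form the basolateral exporter. Slc51b stood at 28.3, 28.2 and 28.9 CPM in ENR, 11 and 5.76 in -VE and 11.6, 20 and 10.3 in Hyper (log2 -1.79, SE 0.25, adjusted p = 0.00356 for -VE over ENR). No -VE library reached the ENR libraries.

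Of 18 genes of the brush border's skeleton, 1 was called higher and 1 lower in Hyper than in ENR, a share near the 10.5% of all genes, 2 higher and 0 lower in Hyper than in -VE, and 0 higher and 1 lower in -VE than in ENR. Shares of all genes called were 6.36% in Hyper over -VE and 2.76% in -VE over ENR. Espin, Espn, an actin-bundling protein of microvilli, rose from 49, 57.1 and 64.9 CPM in ENR and 29.2 and 32.1 in -VE to 126, 238 and 160.0 in Hyper (log2 1.68, SE 0.20, adjusted p = 0.000346 over ENR and log2 2.57, SE 0.24, adjusted p = 0.000353 over -VE). Cobl, an actin nucleator, fell from 79.2, 85.4 and 64.6 CPM in ENR to 31.1 and 25.6 in -VE (log2 -1.44, SE 0.16, adjusted p = 0.00232) and 44.3, 32.2 and 30.8 in Hyper (log2 -1.18, SE 0.17, adjusted p = 0.00115). Villin, Vil1, the core bundling protein, stood at 275, 269 and 268 CPM in ENR, 206 and 221 in -VE and 308, 369 and 326 in Hyper and was not called.

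Among 21 enterocyte transcription factors, 0 were called higher and 2 lower in Hyper than in ENR, a share near the 10.5% of all genes, 4 higher and 0 lower in Hyper than in -VE, and 0 higher and 3 lower in -VE than in ENR. Shares of all genes called were 6.36% in Hyper over -VE and 2.76% in -VE over ENR. Maf, a leucine zipper factor of villus enterocytes, stood at 34.9, 30.9 and 37.2 CPM in ENR, 14.7 and 13.2 in -VE and 32.6, 50.2 and 53.3 in Hyper, with calls for -VE against ENR (log2 -1.30, SE 0.16, adjusted p = 0.00283) and Hyper against -VE (log2 1.78, SE 0.19, adjusted p = 0.0006). The liver X receptor Nr1h3, at 34.4, 40.9 and 37.4 CPM in ENR, 18 and 13.3 in -VE and 0, 13.9 and 10.3 in Hyper, fell in Hyper (log2 -1.77, SE 0.31, adjusted p = 0.0031). Hes1, the Notch target that holds cells on the absorptive path, rose from 119.9 and 120.4 CPM in -VE to 266, 314 and 362 in Hyper (log2 1.40, SE 0.15, adjusted p = 0.000646), with 185, 175 and 167 in ENR. Maf and Hes1 were lowest in the -VE libraries.

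Of 8 genes of the villus bottom, 1 was called higher and 2 lower in Hyper than in ENR, where 10.5% of all genes were called, 1 higher and 0 lower in Hyper than in -VE, and 0 higher and 1 lower in -VE than in ENR. Shares of all genes called were 6.36% in Hyper over -VE and 2.76% in -VE over ENR. The antimicrobial lectin Reg3g rose from 67.2, 73.5 and 44.9 CPM in ENR to 123, 549 and 259 in Hyper (log2 2.40, SE 0.40, adjusted p = 0.00226). Reg3a fell from 433, 495 and 223 to 144, 22.4 and 2.05 CPM (log2 -3.27, SE 0.94, adjusted p = 0.0318), a call lost without ENR replicate 1 (log2 -3.13, adjusted p = 0.0818), without ENR replicate 2 (log2 -3.00, adjusted p = 0.0868), without Hyper replicate 2 (log2 -2.71, adjusted p = 0.161) and without Hyper replicate 3 (log2 -2.66, adjusted p = 0.0839). Reg1 stood at 1889, 1650.4 and 2203 CPM in ENR, 516 and 485 in -VE and 375, 3606 and 43.1 in Hyper, with both the highest and the lowest library in Hyper and no call for Hyper over ENR (log2 -0.49, SE 0.94, adjusted p = 0.758). Left out in turn, Hyper replicates 2 and 3 moved it in opposite ways, to a call of a fall and to no change, without Hyper replicate 2 (log2 -3.29, adjusted p = 0.0152) and without Hyper replicate 3 (log2 0.09, adjusted p = 0.951). Of 9 villus tip genes, 0 were called higher and 1 lower in Hyper than in ENR, a share near that of all genes, 1 higher and 0 lower in Hyper than in -VE, and 0 higher and 1 lower in -VE than in ENR.

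Called genes tied to regeneration and a fetal-like epithelium were higher in the Hyper-enterocytes, though not all of them in every library. Of 11 tested, 9 were called higher and 0 lower than in ENR (median 3.59), 5 higher and 0 lower than in -VE, and 2 higher and 0 lower in -VE than in ENR. Over all genes, 7.78% were called higher in Hyper over ENR, 4.98% in Hyper over -VE and 1.07% in -VE over ENR. With voom, 7 and 4 were called in the 2 comparisons with Hyper. Clu, Anxa1, Anxa3 and Krt7 were higher in each Hyper library than in the ENR library of the same number. By contrast, S100a6 and Anxa10 were lower in replicate 1 (log2 -3.57 and -0.73), and Areg was level in replicate 2 (log2 -0.05). Clusterin, Clu, a secreted chaperone, stood at 1.99, 0.533 and 0.468 CPM in ENR, 0.932 and 1.56 in -VE and 9.32, 44.9 and 24.6 in Hyper (log2 5.09, SE 0.52, adjusted p = 0.000176). Annexin A1, Anxa1, stood at 0.133, 0.304 and 0.234 CPM in ENR, 1.55 and 2.04 in -VE and 2.33, 17.5 and 34.9 in Hyper (log2 6.29, SE 0.63, adjusted p = 0.000159). Ly6a, a surface antigen with 1 UMI in all ENR-enterocytes, stood at 2.02 and 7.08 CPM in -VE and 0, 26.9 and 26.7 in Hyper. The lowest Hyper library was replicate 1 for all 3. The summed level of the 3 revival stem markers Clu, Anxa1 and Ly6a was 0.766 to 2.11 CPM in ENR, 4.56 and 11.2 in -VE, and 11.8, 89.8 and 86.3 in Hyper. The paper's revival stem cell signature also holds Cxadr and Basp1. Cxadr was level between Hyper and ENR (log2 -0.01, 0.08 and -0.01 in replicates 1 to 3), and Basp1 held 0 UMIs in the enterocytes of all 8 libraries.

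Of 8 genes listed because they rise most over all cells of these same libraries, 6 were tested, and Bex1, Bex2, Bex4, Zfhx4, Arxes2 and Ldhb were each called higher in Hyper-enterocytes than in ENR and -VE, which is not independent evidence of their direction. The cyclin-dependent kinase inhibitor Cdkn2a, from the list of imprinted and Polycomb-target genes, stood at 0.93, 0.38 and 1.29 CPM in ENR, 0 and 0.12 in -VE and 4.66, 46.9 and 195 in Hyper (log2 6.74, SE 0.83, adjusted p = 0.000411). In thinned cells of Hyper replicates 2 and 3, Cdkn2a was seen in 19.3 and 66.7% of enterocytes (95% Clopper-Pearson intervals 10.0 to 31.9% and 41.0 to 86.7%), against 3.42 and 16.6% of stem cells. Bex4 was seen in 14.0 and 22.2% of the enterocytes and 89.7 and 85.4% of the stem cells. Before thinning the Cdkn2a shares were 24.1 and 66.7% in enterocytes and 7.36 and 29.6% in stem cells, and those of Bex4 41.4 and 47.6% and 98.4 and 96.6%. Cdkn2a was thus seen more often in the enterocytes and Bex4 more often in the stem cells of both libraries. The 7 enterocytes of Hyper replicate 1 held no UMI of either after thinning.

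Most called cell-cycle genes were lower in Hyper than in ENR and -VE. Of 12 tested genes, 1 was called higher and 7 lower than in ENR (median -1.26, against -0.02 over all genes). Against -VE, 1 was called higher and 9 lower (median -1.99, against 0.02). Between -VE and ENR, 0 were called (5 at an unadjusted p under 0.05 in edgeR, 0 called by DESeq2 and 1 by voom). Over all genes, 2.76% were called lower in Hyper over ENR, 1.38% lower in Hyper over -VE and 2.76% either way in -VE over ENR. With voom, 3 and 5 of the list were called in the 2 comparisons with Hyper. The summed level of the list, Cdkn1a included, was 289, 348 and 315 CPM in ENR, 340 and 336 in -VE, and 575, 510 and 814 in Hyper. The gene called higher is the brake Cdkn1a, at 143, 164 and 165 CPM in ENR, 141 and 108 in -VE and 508, 415 and 756 in Hyper (log2 1.83, SE 0.21, adjusted p = 0.000301 over ENR). The chromatin protein Hmgb2, a marker of dividing cells outside that list, fell from 151, 191 and 151 CPM in ENR to 58.2, 57.1 and 58.5 in Hyper (log2 -1.51, SE 0.14, adjusted p = 0.000107). Tubb5, the other transit amplifying marker outside the list, went the other way. It was higher in Hyper than in the same-numbered ENR library by log2 0.95, 0.37 and 0.14 in replicates 1 to 3. The replication helicase gene Mcm6 fell from 24.1 and 23.6 CPM in -VE to 6.99, 5.3 and 7.18 in Hyper (log2 -1.98, SE 0.28, adjusted p = 0.00254). Lgr5 rose, from 5.98, 6.54 and 7.71 CPM in ENR to 32.9 and 17.6 in -VE (log2 1.89, SE 0.29, adjusted p = 0.00665) and 53.6, 24.1 and 23.6 in Hyper (log2 2.09, SE 0.35, adjusted p = 0.00208), while Olfm4, another stem cell gene, stood at 43.3, 59.7 and 23.4 CPM in ENR, 67.2 and 40.2 in -VE and 2.33, 0.816 and 0 in Hyper, with 3 UMIs left in all Hyper-enterocytes. Stem cells numbered 322, 317 and 229 in ENR, 674 and 1042 in -VE, and 1126, 1481 and 874 in Hyper. Kept cells numbered 2189, 2601 and 2348, 2390 and 4293, and 2812, 3523 and 1983. The part of free RNA from stem cells in the enterocyte levels of stem cell genes was not tested.

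Whether enterocytes answer a medium like the stem cells beside them was tested as the difference between the 2 responses, with the library as a block. For Hyper over ENR, 499 of 12940 genes were called (3.86%), 177 with the response higher in enterocytes (1.37%) and 322 lower (2.49%). For Hyper over -VE, 206 were called (1.59%), 71 higher (0.549%) and 135 lower (1.04%). For -VE over ENR, 171 were called (1.32%), 77 higher (0.595%) and 94 lower (0.726%). Without ENR replicate 2 the first was 284, without -VE replicate 1, -VE replicate 2 and Hyper replicate 2 the second was 127, 101 and 127, and without ENR replicate 1, ENR replicate 2 and -VE replicate 2 the third was 95, 86 and 51. A lower value means that the gene rose less, or fell more, in enterocytes than in stem cells.

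Reg3b, an antimicrobial lectin, gave the largest difference among the genes named by the rule for this test. In stem cells it rose from 1.08, 1.39 and 0.412 CPM in ENR to 187, 418 and 599.9 in Hyper, whereas enterocytes held 555, 411 and 124 CPM in ENR and 14, 171 and 392 in Hyper (log2 -9.88, SE 0.39, adjusted p = 1.20e-09 for the difference of log2 changes). The stem cells held more than the enterocytes in each Hyper replicate, and the enterocytes held more in each ENR replicate. Arg2 stood at 6.26, 7.67 and 6.59 CPM in ENR stem cells and 17.3, 16.2 and 19.4 in Hyper stem cells, against a fall in enterocytes (log2 -4.03, SE 0.27, adjusted p = 1.14e-06). The sodium-proton exchanger Slc9a3 stood at 0.773, 0.653 and 0.686 CPM in ENR stem cells and 6.24, 6.85 and 9.75 in Hyper stem cells, and at 28.8, 23.4 and 21 and 0, 33.8 and 15.4 in enterocytes (log2 -3.63, SE 0.52, adjusted p = 0.000486). All 3 genes were higher in every Hyper than in every ENR sum of stem cells, with no such order in enterocytes.

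Apoc3 and Slc6a19 gave the opposite sign, at low levels in stem cells. Apoc3 stood at 5.02, 7.34 and 4.8 CPM in ENR stem cells and 0.498, 0.597 and 0.462 in Hyper stem cells (log2 3.42, SE 0.65, adjusted p = 0.00397), and Slc6a19 at 3.25, 4.65 and 3.57 and 0, 0.0373 and 0. These stem levels are a few CPM, the share of enterocytes in the library fell alongside them from 9.78 to 13.1% in ENR to 0.249 to 1.65% in Hyper, and the part of free RNA from enterocytes in them was not tested. For -VE over ENR, Lgr5 stood at 104, 112 and 92.5 CPM in ENR stem cells and 101 and 80.8 in -VE stem cells, and its rise in enterocytes was larger than the change there (log2 2.06, SE 0.22, adjusted p = 0.000373). Fbp1, a gluconeogenic enzyme, fell in enterocytes from 109, 105 and 86.2 CPM to 23.9 and 24.2 and stood at 32.5, 28.8 and 34.9 and 36 and 42.8 CPM in stem cells (log2 -2.35, SE 0.16, adjusted p = 5.21e-06).

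**Figure D5:**
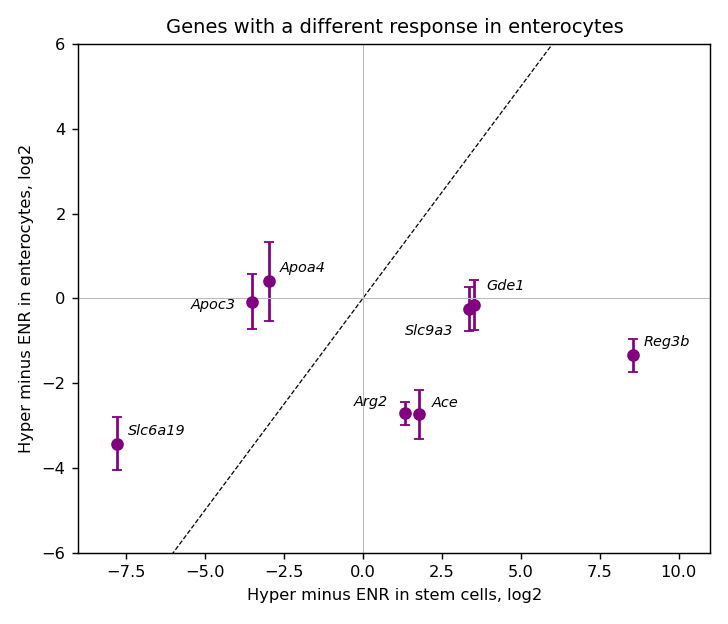
Log2 change from ENR to Hyper in stem cells (horizontal) and in enterocytes (vertical, the stem cell change plus the fitted difference) for 8 genes with a called difference, with bars for the standard error of that difference and a dashed line where both changes are equal. Reg3b, Slc9a3, Gde1, Ace and Arg2 lie below the line, and Apoc3, Apoa4 and Slc6a19 above it.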

How the data were processed

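Single cells of 8 organoid libraries were captured with the 10x 3′ V3 kit. The authors aligned reads to mm10 with Cell Ranger (3.0.0 in the methods and processing notes, 3.1.0 in the matrix headers), filtered and clustered cells with Seurat 3.1.4 and deposited UMI counts for 23810 genes with an annotation of the kept cells. The methods state a minimum of 1500 genes and at most 25% mitochondrial reads, but 48 kept enterocytes are under 1500 genes. The feature list of ENR replicate 1 carries 35 duplicated symbols.

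Counts of cells annotated EC were summed per library, since cells are not replicates. edgeR 4.0.16 in R 4.3.3 (limma 3.58.1) tested 11250 genes with TMM, filterByExpr and Benjamini-Hochberg adjustment, all 8 libraries in 1 fit, and the script was tested on simulated data. Differences from stem cells were tested as an interaction with library as block. DESeq2 1.42.0, voom, other filters and scalings, thinned cells, omitted cells and omitted libraries served as alternatives. No doublet caller was run; enterocytes with the 5% highest UMI counts were left out instead (1127, 658 and 327 calls). Intervals cover counting error only. Python 3.11.15, numpy 2.4.6, scipy 1.17.1, pandas 2.3.3 and matplotlib 3.10.9 did the rest. Gene positions are from GENCODE M21. Upstream windows matched 153 of 204 named genes.

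The members and lists were chosen with earlier results of these data known. Named are the enterocyte markers, per comparison the 8 called genes with the largest change each way (no overlap, mean of 10 CPM or more), per list the 4 with the highest levels and the called extremes, the 5 largest differences from stem cells each way and the 10 highest genes per medium. Zfhx4, Arxes2 and similar genes with 0 UMIs are given as bounds. Some genes that the rule picks are not reported here. Other genes in the text were named as called members of a list after their values were seen.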

Additional observations from a re-analysis of the deposited data

Results flagged for a closer look

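The results listed here stand out because the effect of a medium differed between enterocytes and stem cells of the same libraries by a test of that difference in edgeR, with 499, 206 and 171 genes called for Hyper over ENR, Hyper over -VE and -VE over ENR. Groups of 2 or 3 libraries are too small for a check of single outlying libraries. Each value below is the log2 change in enterocytes minus that in stem cells, and no explanation was tested.

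For Hyper over ENR, the response was lower in enterocytes for Reg3b (-9.88), Ace (-4.52), Arg2 (-4.03), Gde1 (-3.67) and Slc9a3 (-3.63), and all 5 held when any library was left out. It was higher for Apoc3 (3.42) and Slc6a19 (4.34), which held too, the latter against stem levels of 0, 0.0373 and 0 CPM in Hyper, so that its size depends on the prior count. It was also higher for Apoa4 (3.38), Anxa10 (5.48) and 2010001M07Rik (5.46). Apoa4 was lost without ENR replicate 1 (log2 3.34, adjusted p = 0.132), without ENR replicate 2 (log2 3.02, adjusted p = 0.236), without ENR replicate 3 (log2 3.13, adjusted p = 0.12), without Hyper replicate 1 (log2 2.84, adjusted p = 0.097) and without Hyper replicate 2 (log2 3.16, adjusted p = 0.149). Anxa10 was lost without ENR replicate 2 (log2 3.72, adjusted p = 0.399), without ENR replicate 3 (log2 5.86, adjusted p = 0.0831), without Hyper replicate 2 (log2 5.65, adjusted p = 0.0771) and without Hyper replicate 3 (log2 5.10, adjusted p = 0.0946). 2010001M07Rik turned to -0.78 when cells were thinned to 10000 UMIs, and was lost without ENR replicate 1 (log2 5.55, adjusted p = 0.055), without ENR replicate 2 (log2 5.27, adjusted p = 0.155) and without Hyper replicate 1 (log2 3.39, adjusted p = 0.169).

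For Hyper over -VE, the response was lower in enterocytes for Reg3b (-9.37), Reg3g (-3.89), Ace (-3.33), Arg2 (-3.30) and Cdc20 (-3.07), and of these Ace was lost without -VE replicate 1 (log2 -2.49, adjusted p = 0.0742) and without Hyper replicate 2 (log2 -2.94, adjusted p = 0.0694). It was higher for Apoc3 (4.23) and Smlr1 (4.35), which held in each such fit, and for Cyp4a10 (8.41), 2010001M07Rik (5.51) and Apoa4 (4.21). Cyp4a10 was lost without ENR replicate 1 (log2 8.40, adjusted p = 0.0546), without ENR replicate 2 (log2 8.56, adjusted p = 0.0517), without -VE replicate 1 (log2 8.15, adjusted p = 0.378) and without -VE replicate 2 (log2 8.73, adjusted p = 0.129). 2010001M07Rik was lost after thinning (log2 2.29), and without ENR replicate 1 (log2 5.55, adjusted p = 0.0515), without ENR replicate 2 (log2 5.71, adjusted p = 0.0587), without -VE replicate 1 (log2 5.68, adjusted p = 0.413), without -VE replicate 2 (log2 5.49, adjusted p = 0.0869) and without Hyper replicate 1 (log2 3.44, adjusted p = 0.235). Apoa4 was lost without ENR replicate 1 (log2 3.93, adjusted p = 0.0906), without ENR replicate 2 (log2 4.08, adjusted p = 0.0918), without ENR replicate 3 (log2 3.97, adjusted p = 0.0736), without -VE replicate 2 (log2 2.95, adjusted p = 0.305) and without Hyper replicate 2 (log2 4.00, adjusted p = 0.114).

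For -VE over ENR, the response was lower in enterocytes for Vwce (-2.53), Chac1 (-2.36), Fbp1 (-2.35), Guca2b (-2.28) and Slc5a4b (-2.23), and higher for Zg16 (5.05), Lgr5 (2.06), Sycn (1.99), Myl7 (1.70) and Anxa5 (1.63). Vwce, Chac1, Fbp1, Lgr5 and Sycn held when any library was left out. Guca2b was lost without ENR replicate 1 (log2 -2.17, adjusted p = 0.146), without ENR replicate 2 (log2 -2.66, adjusted p = 0.0736), without ENR replicate 3 (log2 -2.14, adjusted p = 0.0739) and without -VE replicate 2 (log2 -1.31, adjusted p = 0.463). Slc5a4b was lost without ENR replicate 1 (log2 -2.57, adjusted p = 0.0879), without ENR replicate 2 (log2 -1.72, adjusted p = 0.104) and without -VE replicate 2 (log2 -1.84, adjusted p = 0.235). Zg16, a goblet cell gene at 2.64 and 152 CPM in the -VE-enterocytes, was lost without ENR replicate 1 (log2 4.83, adjusted p = 0.184), without ENR replicate 2 (log2 4.63, adjusted p = 0.254), without ENR replicate 3 (log2 5.36, adjusted p = 0.0894) and without -VE replicate 2 (log2 0.23, adjusted p = 0.997). Myl7 was lost without ENR replicate 1 (log2 1.65, adjusted p = 0.161), without ENR replicate 2 (log2 1.46, adjusted p = 0.232), without -VE replicate 1 (log2 1.77, adjusted p = 0.124) and without -VE replicate 2 (log2 1.59, adjusted p = 0.296). Anxa5 was lost without ENR replicate 1 (log2 1.86, adjusted p = 0.0951), without ENR replicate 2 (log2 1.19, adjusted p = 0.286), without ENR replicate 3 (log2 1.79, adjusted p = 0.0819) and without -VE replicate 2 (log2 1.01, adjusted p = 0.541).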

How the results depend on the processing

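Counts of called genes held within 1.5 times for most settings. For Hyper over ENR (1185), Hyper over -VE (715) and -VE over ENR (310), DESeq2 gave 1196, 762 and 297 and RLE scaling 1188, 716 and 307. A minimum of 10 CPM in 2 sums left 687 and 440 in the first 2, and thinning to 10000 UMIs 537 and 268. With no filter the last 2 gave 1139 and 567, with the 2 groups alone Hyper over -VE gave 365, and with voom -VE over ENR gave 552. Leaving out 1 library gave 742 to 1211, 325 to 766 and 51 to 373. The differences from stem cells (499, 206 and 171) became 284 to 479, 101 to 216 and 51 to 216 without 1 library. Thinning gave 269 and 134 for the first 2, and transit amplifying cells in place of stem cells 376 for Hyper over -VE. With only cells outside the stem and transit amplifying classes as the base, the share of enterocytes differed by -15.7 percentage points between Hyper and ENR, and leaving out 1 library gave -11.8 to -10.1. The causes were not tested.

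Of 239 results on named genes under 4280 alternatives, 3837 kept their call and direction, 410 lost the call, 17 gained it and 16 turned in sign, each of these but 1 for a marker that was not called. For Hyper over ENR, Apoa4 became -0.15 with the replicate block and -0.96 with voom. For Hyper over -VE, Alpi became 0.0547 with voom. Leaving out 1 library, Reg1 ranged from -3.29 to 0.0878 for Hyper over ENR and Alpi from -0.21 to 1.72 for -VE over ENR, and for Hyper over -VE the ranges were -0.93 to 1.00 for Alpi, -0.88 to 0.31 for Sis, -1.64 to 0.24 for Apoa1, -1.35 to 2.02 for Reg1 and -0.68 to 0.16 for Rbp2. The response of 2010001M07Rik against stem cells, Hyper over ENR, became -0.78 after thinning.

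With the replicate block, 1192, 690 and 410 genes were called. The deviations of same-numbered ENR and Hyper libraries from their group means correlated at 0.0949, 0.0876 and 0.18 over 11250 genes, each above the ENR and Hyper pairs of unlike number. For -VE replicates 1 and 2 the values were 0.106 and -0.0986 with the same-numbered ENR library, and 0.106 and 0.0148 with the Hyper library. With 2 or 3 libraries a group, such values cannot settle whether the numbers pair the samples. The main fit left the numbers out. Depth limits Hyper replicate 1 most, with 425421 UMIs from 7 cells.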

Other observations

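Antigen presentation, stress and growth-control genes gave further values in enterocytes. Of 9 genes of antigen presentation, 3 were called higher and 0 lower in Hyper than in ENR, the same counts against -VE, and 0 between -VE and ENR (edgeR, 1 at an unadjusted p under 0.05, 0 by DESeq2 and voom). Over all genes, 7.78% were called higher in Hyper over ENR and 4.98% in Hyper over -VE. H2-Ab1, the beta chain of a class II molecule, stood at 0.399, 0.38 and 1.29 CPM in ENR, 1.09 and 0.36 in -VE and 51.3, 15.1 and 36.9 in Hyper (log2 5.44, SE 0.57, adjusted p = 0.000206 for Hyper over ENR), whereas the invariant chain Cd74 held 0 UMIs in all Hyper-enterocytes and H2-Aa, the partner alpha chain, 0 UMIs in all 8 libraries. The class I genes H2-K1, H2-D1 and B2m, the members with the highest levels, were not called.

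Of 12 genes that respond to cell dissociation, 0 were called between Hyper and ENR (3 at an unadjusted p under 0.05 in edgeR, 0 called by DESeq2 and voom), 5 were higher and 0 lower in Hyper than in -VE, and 0 higher and 3 lower in -VE than in ENR. Over all genes, 4.98% were called higher in Hyper over -VE and 1.69% lower in -VE over ENR. Atf3, a stress transcription factor, stood at 234, 198 and 232 CPM in ENR, 65.1 and 45.3 in -VE and 254, 245 and 280.0 in Hyper, with calls for -VE over ENR (log2 -2.01, SE 0.18, adjusted p = 0.000925) and Hyper over -VE (log2 2.24, SE 0.18, adjusted p = 0.000187). No -VE library reached any ENR or Hyper library. Maf and Hes1 were lowest in the same 2 -VE libraries, and the part of handling in them was not tested.

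Cholesterol synthesis gave 0 calls among 14 genes in each comparison by edgeR, DESeq2 and voom (5, 2 and 3 at an unadjusted p under 0.05 for Hyper over ENR, Hyper over -VE and -VE over ENR). Of 9 YAP/TAZ targets, 1 was called higher in Hyper than in ENR, near the 7.78% of all genes called higher, 0 in Hyper over -VE (6 at an unadjusted p under 0.05 in edgeR, 1 called by DESeq2, 0 by voom) and 0 in -VE over ENR (0 at that p, 0 by DESeq2 and voom). All 9 had a positive sign over ENR (median log2 0.92, against -0.02 over all genes). Over -VE, 8 had a positive sign and 1 a negative one (median 0.77, against 0.02). Their summed level was 117, 108 and 120 CPM in ENR, 105 and 116 in -VE, and 310, 151 and 168 in Hyper. Of 6 tested imprinted or Polycomb-target genes, 2 were called higher and 0 lower in Hyper than in ENR and 1 higher and 0 lower than in -VE. The other members of this list of 16 were not tested. Over all genes, 7.78% were called higher in Hyper over ENR and 4.98% in Hyper over -VE. Cdkn2a, called in both, held 23 UMIs in ENR-enterocytes, 1 in -VE and 307 in Hyper, so it passed the level filter through Hyper. H19, Igf2, Dlk1, Meg3 and Hoxb13 held 0 UMIs in the enterocytes of all 8 libraries.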
